A study of Mus musculus with 24 samples.

Results

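The acute phase proteins are described here through 10 genes of the lung: the serum amyloid A genes Saa3 and Saa1, the orosomucoids Orm1, Orm2 and Orm3, and Lcn2, Hp, Lbp, Lrg1 and Serpina3n. They were taken by name from a table of 54532 genes, and each name matched 1 row. Expression was measured by RNA-seq of total RNA from whole lungs of young male C57BL6/j mice. Animals spent 2 days in hypoxia or normoxia and received the BCL-2 family inhibitor ABT-263 (navitoclax, used as a senolytic) at 50 mg/kg/day or its vehicle. This gives 4 groups of 6 libraries, namely hypoxia with ABT-263, hypoxia with vehicle, normoxia with ABT-263 and normoxia with vehicle, the last being the study's control. The oxygen level, the route of dosing and the composition of the vehicle are not stated in the labels, and the labels give no animal, batch or replicate numbers. Whether each library is a separate animal is not said, so the p-values cover library-to-library variation, part of which could be technical.

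Acute phase proteins are secreted into blood and tissue fluid during infection or injury. The liver makes most of the circulating pool when IL-6, through STAT3, and IL-1, through NF-kB and C/EBP factors, reach hepatocytes, and glucocorticoids strengthen the response. Epithelial cells, macrophages, fibroblasts and fat cells of other organs, the lung included, make part of the same set locally. In whole-lung RNA, fewer cells of a type and less RNA per cell cannot be told apart.

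Each library held between 12643484 and 17295233 expected counts, which are reads assigned to genes with shared reads divided by estimation. Levels below are counts per 1000000 (CPM) scaled by TMM, a factor that corrects for differences in library composition. All 10 genes passed the filter on low counts, among 16935 genes tested. The test was edgeR's quasi-likelihood F test, and a gene was called at a Benjamini-Hochberg adjusted p under 0.05 over all genes tested. Correlations between libraries of a group lay between 0.971 and 0.993. In each group the library with the lowest median correlation with its group was treated as standing apart, and counts are also given without these 4. They were hypoxia ABT-263 library 1, hypoxia vehicle library 5, normoxia ABT-263 library 5 and normoxia vehicle library 2. The rule takes 1 library per group by rank and does not show that any is an outlier. Normoxia vehicle library 2 was taken at 0.984, while hypoxia ABT-263 library 2 was kept at 0.979. Library numbers only name the libraries of a group. Markers of liver were low: Fgb was at 0 in all 24 libraries, and albumin (Alb) averaged between 0.692 and 0.879 CPM in the 4 groups. The 10 hepatocyte markers, given further below, summed to between 3.14 and 24.9 CPM per library.

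Most of the set was higher in hypoxia. Under ABT-263, 9 of the 10 genes were called in hypoxia against normoxia, 8 higher and 1 lower, where 41.0% of all genes were called, 21.6% higher and 19.4% lower. Under vehicle, 8 of 10 were called, 7 higher and 1 lower, where 35.7% of all genes were called, 18.9% higher and 16.8% lower. The median log2 fold change of the 10 genes was 2.53 under ABT-263 and 1.83 under vehicle, beside -0.02 and -0.04 over all genes tested. Rises of 4-fold or more were called for 7 of the 10 genes under ABT-263 and for 4 under vehicle, against 0.579% and 0.585% of all genes. For 7 genes, Saa3, Saa1, Lcn2, Orm1, Orm2, Lrg1 and Serpina3n, every hypoxia library lay above every normoxia library of the same treatment in both comparisons, as was so for 9.16% of all genes under ABT-263 and 10.9% under vehicle. The reverse held for 1 gene, Orm3, under ABT-263 (5.49% of all genes) and for 0 under vehicle (6.90%). The comparisons under ABT-263 and under vehicle use separate libraries. Without the 4 libraries that stood apart, 8 genes were higher and 1 lower under ABT-263, and 8 were higher and 0 lower under vehicle.

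**Figure D1:**
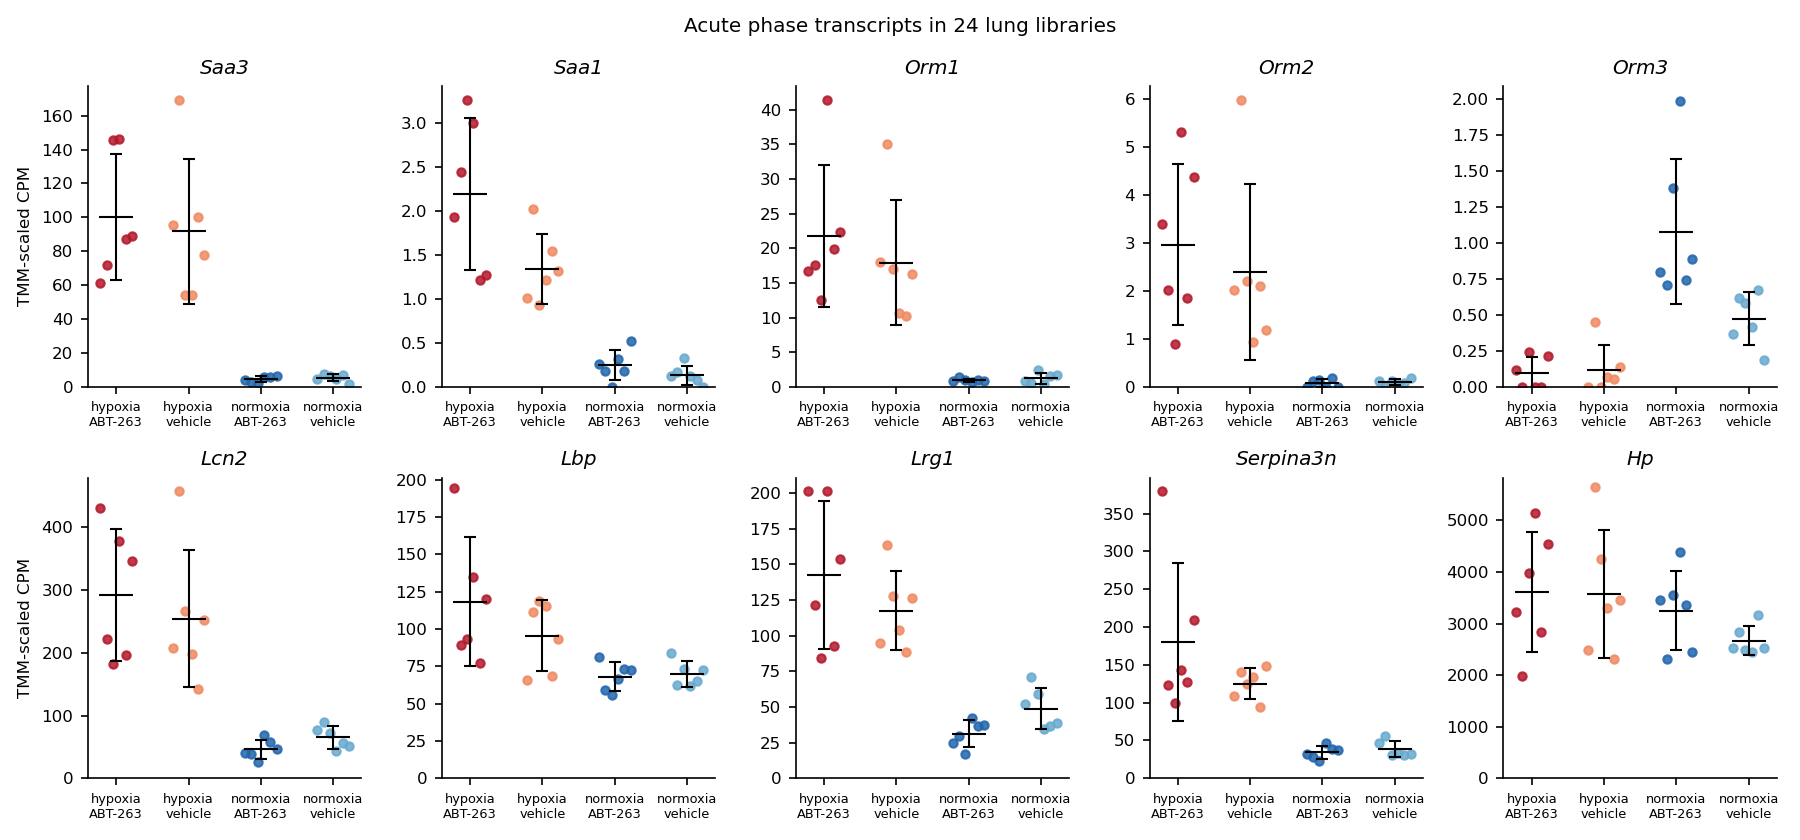
Level of each of the 10 genes (y axis, TMM-scaled CPM, each panel with its own linear scale from 0) in the 4 groups (x axis). Points are libraries, and bars are the mean ± SD of 6 libraries; Saa3 averaged 100.2 and 91.7 CPM in the hypoxia groups with ABT-263 and vehicle against 4.52 and 5.36 CPM in the matching normoxia groups, whereas Orm3 ran the other way.

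Saa3, the serum amyloid A that macrophages and epithelial cells make outside the liver, rose in both comparisons. It ran from 61.0 to 146.2 CPM with a median of 88.2 in hypoxia with ABT-263, against 2.04 to 6.13 CPM with a median of 4.91 in normoxia with ABT-263. In the vehicle groups Saa3 ran from 53.9 to 169.1 CPM with a median of 86.4 in hypoxia, against 1.64 to 7.83 CPM with a median of 5.49 in normoxia. The lowest hypoxia library stood well above the highest normoxia library in both cases. The log2 fold change was 4.48 (SE 0.36, 22.3-fold, edgeR adjusted p = 5.91e-09) under ABT-263 and 4.10 (SE 0.35, 17.1-fold, adjusted p = 1.24e-08) under vehicle.

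Saa1, a main circulating serum amyloid A of the mouse that rides on high-density lipoprotein, rose as well. It ran from 1.21 to 3.26 CPM with a median of 2.19 in hypoxia with ABT-263, against 0 to 0.517 CPM with a median of 0.225 in normoxia with ABT-263. Under vehicle the range was 0.931 to 2.02 CPM, median 1.27, in hypoxia and 0 to 0.323 CPM, median 0.120, in normoxia. These values rest on few reads, 17 to 40 counts per library in hypoxia with ABT-263 and 14 to 28 in hypoxia with vehicle, against at most 7 and 5 in the matching normoxia groups. The groups did not overlap, and the log2 fold change was 3.16 (SE 0.41, edgeR adjusted p = 2.33e-06) under ABT-263 and 3.23 (SE 0.46, adjusted p = 6.81e-06) under vehicle.

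Saa2, the near copy of Saa1 beside it on chromosome 7, was too low to be tested and bears on how Saa1 reads were assigned. Over 6 libraries it had 37 counts in hypoxia and 2 in normoxia under ABT-263, a ratio of 18.3 (95% counting interval 4.72 to 156.8). Under vehicle it had 27 and 2 counts, a ratio of 13.8 (3.47 to 119.7); these intervals cover counting error only. The Saa1 and Saa2 transcripts are 93.9% identical, yet 95.3% of the 75-base windows of Saa1 occur in neither Saa2 nor Saa3, and all windows of Saa3 are its own. The sum of Saa1 and Saa2 averaged 2.63 CPM in hypoxia and 0.267 CPM in normoxia under ABT-263 (log2 fold change 3.29, edgeR adjusted p = 1.57e-06). Under vehicle it averaged 1.65 and 0.153 CPM (3.33, adjusted p = 4.45e-06).

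Both serum amyloid A genes lie on the minus strand of chromosome 7 in GRCm38, Saa3 at chr7:46711998-46715700 and Saa1 at chr7:46740497-46742980. Their upstream sequences are shown because the genes moved together while the sequences differ: the 250 bases before the 2 starts are 48.9% identical. The stretches are from RefSeq (GRCm38.p6), written 5′ to 3′, Saa3 from 250 to 101 bases before its start (chr7:46715777-46715926, minus strand) and Saa1 from 200 to 51 bases before (chr7:46743031-46743180, minus strand). Capitals mark matches to TTNNGNAA on either strand, a short form of the site bound by C/EBP factors.
Saa3: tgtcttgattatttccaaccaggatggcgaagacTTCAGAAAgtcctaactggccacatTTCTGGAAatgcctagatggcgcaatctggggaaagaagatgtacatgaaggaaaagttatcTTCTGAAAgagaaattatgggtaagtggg
Saa1: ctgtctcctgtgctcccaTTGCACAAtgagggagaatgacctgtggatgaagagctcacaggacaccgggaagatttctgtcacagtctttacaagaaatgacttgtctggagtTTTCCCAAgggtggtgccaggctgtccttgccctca
Over the full 250 bases Saa3 held 4 such matches and Saa1 held 2, and 36.8% of 32851 mouse promoters hold at least 1.

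The orosomucoids, acidic glycoproteins of plasma that bind drugs and dampen neutrophil and lymphocyte responses, split into genes that rose and 1 that fell. Orm1 ran from 12.5 to 41.4 CPM with a median of 18.8 in hypoxia with ABT-263, against 0.636 to 1.36 CPM with a median of 0.937 in normoxia with ABT-263. In the vehicle groups Orm1 ran from 10.2 to 35.1 CPM, median 16.6, in hypoxia and from 0.413 to 2.45 CPM, median 1.20, in normoxia. Every hypoxia library was above every normoxia library. In normoxia it rested on 8 to 23 counts per library with ABT-263 and 7 to 38 with vehicle. The log2 fold change of Orm1 was 4.48 (SE 0.39, edgeR adjusted p = 1.04e-08) under ABT-263 and 3.84 (SE 0.38, adjusted p = 5.24e-08) under vehicle.

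Orm2, the close copy of Orm1, had the largest fold change of the 10 genes. It ran from 0.897 to 5.31 CPM with a median of 2.71 in hypoxia with ABT-263, against 0 to 0.185 CPM with a median of 0.0591 in normoxia with ABT-263. With vehicle, Orm2 ran from 0.928 to 5.98 CPM, median 2.06, in hypoxia and from 0 to 0.189 CPM, median 0.0982, in normoxia. The normoxia groups held 7 counts of Orm2 with ABT-263 and 9 with vehicle over 6 libraries each, so the size of the change is known less well than its direction. Orm2 rose by 5.12 on the log2 scale (95% interval 3.82 to 6.41, edgeR adjusted p = 1.13e-06) under ABT-263 and by 4.55 (3.29 to 5.81, adjusted p = 3.49e-06) under vehicle.

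Orm3, the third mouse orosomucoid, which lies between Orm1 and Orm2 on chromosome 4, fell. It ran from 0 to 0.245 CPM with a median of 0.0585 in hypoxia with ABT-263, against 0.710 to 1.99 CPM with a median of 0.841 in normoxia with ABT-263, with no overlap. With vehicle, Orm3 ran from 0 to 0.448 CPM, median 0.0633, in hypoxia and from 0.189 to 0.673 CPM, median 0.497, in normoxia. The overlap under vehicle came from 1 library, hypoxia vehicle library 2, which held 6 of the 10 counts of its group. The log2 fold change was -3.42 (SE 0.59, edgeR adjusted p = 7.17e-05) under ABT-263 and -1.99 (SE 0.62, adjusted p = 0.0146) under vehicle. Without hypoxia vehicle library 2 the vehicle value was -2.98 (adjusted p = 0.00153), and without the 4 libraries that stood apart it was -1.72 (adjusted p = 0.0635) and no longer called.

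The make-up of the orosomucoid reads differed between hypoxia and normoxia, as it would from the rise of Orm1 and Orm2 alone, so the shares are a description and no separate support for the fall of Orm3. Orm3 gave 0.527% ± 0.709 of the summed Orm count in hypoxia with ABT-263 and 0.488% ± 0.433 in hypoxia with vehicle, against 50.0% ± 15.0 in normoxia with ABT-263 and 30.8% ± 17.3 in normoxia with vehicle (SD, n = 6 each). The highest share in a hypoxia library was 1.80%, and the lowest in a normoxia library was 8.82%. Orm1 gave 87.9% and 88.2% in hypoxia with ABT-263 and vehicle, against 46.6% and 63.9% in normoxia with ABT-263 and vehicle. The normoxia shares rest on 188 and 171 Orm counts over 6 libraries with ABT-263 and vehicle, against 2130 and 1781 in hypoxia.

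**Figure D2:**
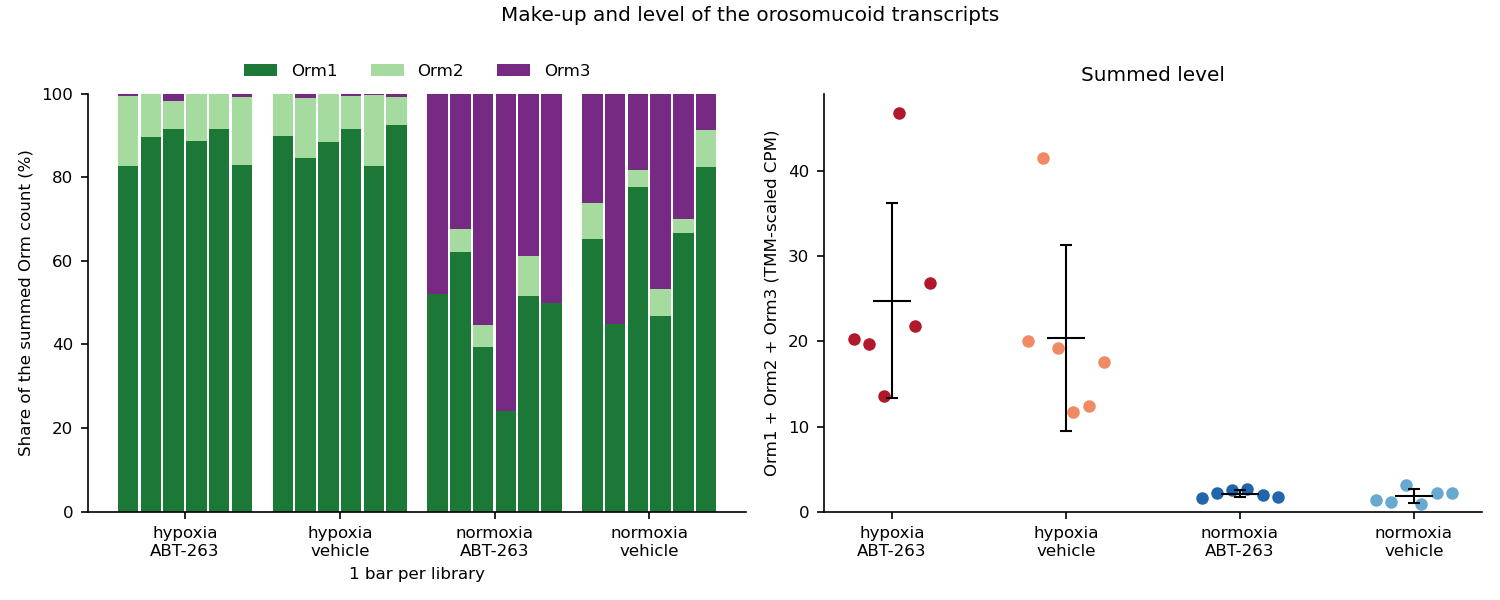
Left, share of the summed Orm1, Orm2 and Orm3 count (y axis, %) in each library, 1 stacked bar per library in the 4 groups; right, the summed level (TMM-scaled CPM, linear axis from 0), with points for libraries and bars for the mean ± SD of 6. Orm3 reached at most 1.80% of the Orm count in hypoxia and at least 8.82% in normoxia, while the sum averaged 24.8 and 20.4 CPM in hypoxia against 2.11 and 1.82 CPM in normoxia.

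The 3 orosomucoids are close copies, so reads could be divided wrongly between them. Orm1 and Orm2 transcripts are 91.0% identical and share 13.8% of their 75-base windows, which makes their single values uncertain. Orm3 is 86.1% identical to Orm1 and 88.0% to Orm2, and 99.9% of its 75-base windows occur in neither. The read length is not given in the sources used here. Summed over the 3 genes, the Orm count averaged 24.8 ± 11.5 CPM in hypoxia and 2.11 ± 0.395 CPM in normoxia under ABT-263 (SD, n = 6 each; log2 fold change 3.55, edgeR adjusted p = 4.09e-08). Under vehicle the sum averaged 20.4 ± 10.9 CPM in hypoxia and 1.82 ± 0.852 CPM in normoxia (log2 fold change 3.49, adjusted p = 5.64e-08).

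Orm1 (chr4:63344560-63348163), Orm3 (chr4:63356162-63359511) and Orm2 (chr4:63362449-63365878) follow each other on the plus strand. The upstream sequences of Orm2 and Orm3 are shown because these neighbours moved in opposite directions although the 250 bases before their starts are 85.5% identical. Both run from 200 to 1 base before the start, from RefSeq (GRCm38.p6), Orm2 at chr4:63362249-63362448 and Orm3 at chr4:63355958-63356157, plus strand, with matches to TTNNGNAA on either strand in capitals.
Orm2: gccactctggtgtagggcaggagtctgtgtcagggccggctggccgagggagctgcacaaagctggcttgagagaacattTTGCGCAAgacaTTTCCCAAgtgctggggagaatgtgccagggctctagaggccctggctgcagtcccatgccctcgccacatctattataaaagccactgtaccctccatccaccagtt
Orm3: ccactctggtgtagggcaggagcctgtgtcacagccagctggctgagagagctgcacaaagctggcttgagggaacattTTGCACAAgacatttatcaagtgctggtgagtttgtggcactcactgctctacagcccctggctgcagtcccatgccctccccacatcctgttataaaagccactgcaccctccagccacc
Orm2 held 2 matches, at 120 to 113 and 108 to 101 bases before its start, and Orm3 held 1, at 121 to 114. A promoter was found for 7 of the 10 genes, and 6 of the 7 held a C/EBP match (36.8% of all promoters). Orm3, which fell, is among the 6. Of the other motifs searched on both strands, the STAT form TTCNNNGAA was found in 0 of the 7 (7.02% of all promoters), an NF-kB form in Serpina3n (4.11%), the glucocorticoid receptor form ACANNNTGT in Lcn2, Orm3 and Serpina3n (5.84%) and a hypoxia response form, ACGTG or GCGTG, in Lrg1 (38.6%). No 2 matches overlapped, and they are matches of letters, not measured binding.

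Lcn2 encodes lipocalin-2, which withholds iron from bacteria by binding their siderophores and is made by airway epithelium and neutrophils. It ran from 182.0 to 430.4 CPM with a median of 284.4 in hypoxia with ABT-263, against 25.8 to 68.3 CPM with a median of 43.4 in normoxia with ABT-263. In vehicle lungs Lcn2 ran from 142.0 to 458.1 CPM, median 230.3, in hypoxia and from 42.8 to 90.6 CPM, median 64.6, in normoxia. The groups did not overlap at either treatment. Lcn2 rose by 2.66 (SE 0.29, 6.33-fold, edgeR adjusted p = 2.51e-07) under ABT-263 and by 1.96 (SE 0.28, 3.90-fold, adjusted p = 8.51e-06) under vehicle on the log2 scale.

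Hp encodes haptoglobin, which binds free haemoglobin and is made in quantity by the lung as well as the liver. It was the most abundant of the 10 genes and was not called. It ran from 1986.8 to 5139.7 CPM with a median of 3599.7 in hypoxia with ABT-263, against 2321.3 to 4377.5 CPM with a median of 3406.4 in normoxia with ABT-263. In vehicle lungs Hp ran from 2306.0 to 5647.0 CPM, median 3379.4, in hypoxia and from 2444.8 to 3169.2 CPM, median 2532.3, in normoxia. The log2 fold change was 0.15 (95% interval -0.28 to 0.59, edgeR adjusted p = 0.586) under ABT-263 and 0.42 (-0.01 to 0.86, adjusted p = 0.124) under vehicle, and both intervals end below a rise of 2-fold.

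Lbp encodes the lipopolysaccharide binding protein, which hands bacterial lipopolysaccharide to CD14 and TLR4. It ran from 76.9 to 194.5 CPM with a median of 106.7 in hypoxia with ABT-263, against 55.7 to 81.5 CPM with a median of 69.4 in normoxia with ABT-263. Vehicle lungs had 66.0 to 119.0 CPM, median 102.4, in hypoxia and 61.9 to 84.1 CPM, median 68.7, in normoxia. The groups overlapped in both cases, and the changes were the smallest among the genes with a positive call. Lbp rose by 0.80 on the log2 scale (SE 0.18, edgeR adjusted p = 0.00127) under ABT-263, and stood at 0.45 (SE 0.18, adjusted p = 0.0545) under vehicle. The vehicle value was past the threshold in DESeq2 (adjusted p = 0.0374) and without the 4 libraries that stood apart (adjusted p = 0.0151).

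Lrg1, a leucine-rich glycoprotein that binds endoglin and modifies TGF-beta signalling in endothelium, rose under both treatments. It ran from 84.3 to 201.6 CPM with a median of 137.6 in hypoxia with ABT-263, against 17.1 to 42.4 CPM with a median of 33.2 in normoxia with ABT-263. Vehicle lungs had 88.4 to 163.2 CPM, median 115.0, in hypoxia and 34.8 to 70.8 CPM, median 45.7, in normoxia. The groups did not overlap. Lrg1 rose by 2.19 on the log2 scale (SE 0.25, edgeR adjusted p = 4.72e-07) under ABT-263 and by 1.27 (SE 0.24, adjusted p = 0.000229) under vehicle.

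Serpina3n, a mouse relative of human alpha-1-antichymotrypsin that inhibits serine proteases such as granzyme B, rose as well. It ran from 99.1 to 379.9 CPM with a median of 135.4 in hypoxia with ABT-263, against 23.3 to 46.5 CPM with a median of 34.7 in normoxia with ABT-263. Vehicle lungs had 94.7 to 148.3 CPM, median 129.5, in hypoxia and 30.3 to 56.3 CPM, median 32.9, in normoxia. The groups did not overlap, and 1 library, hypoxia ABT-263 library 1, stood far above the rest of its group. Serpina3n belongs to a cluster of close relatives, and how far reads were divided among them was not measured. Serpina3n rose by 2.40 on the log2 scale (SE 0.27, edgeR adjusted p = 3.97e-07) under ABT-263 and by 1.71 (SE 0.26, adjusted p = 2.07e-05) under vehicle.

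**Figure D3:**
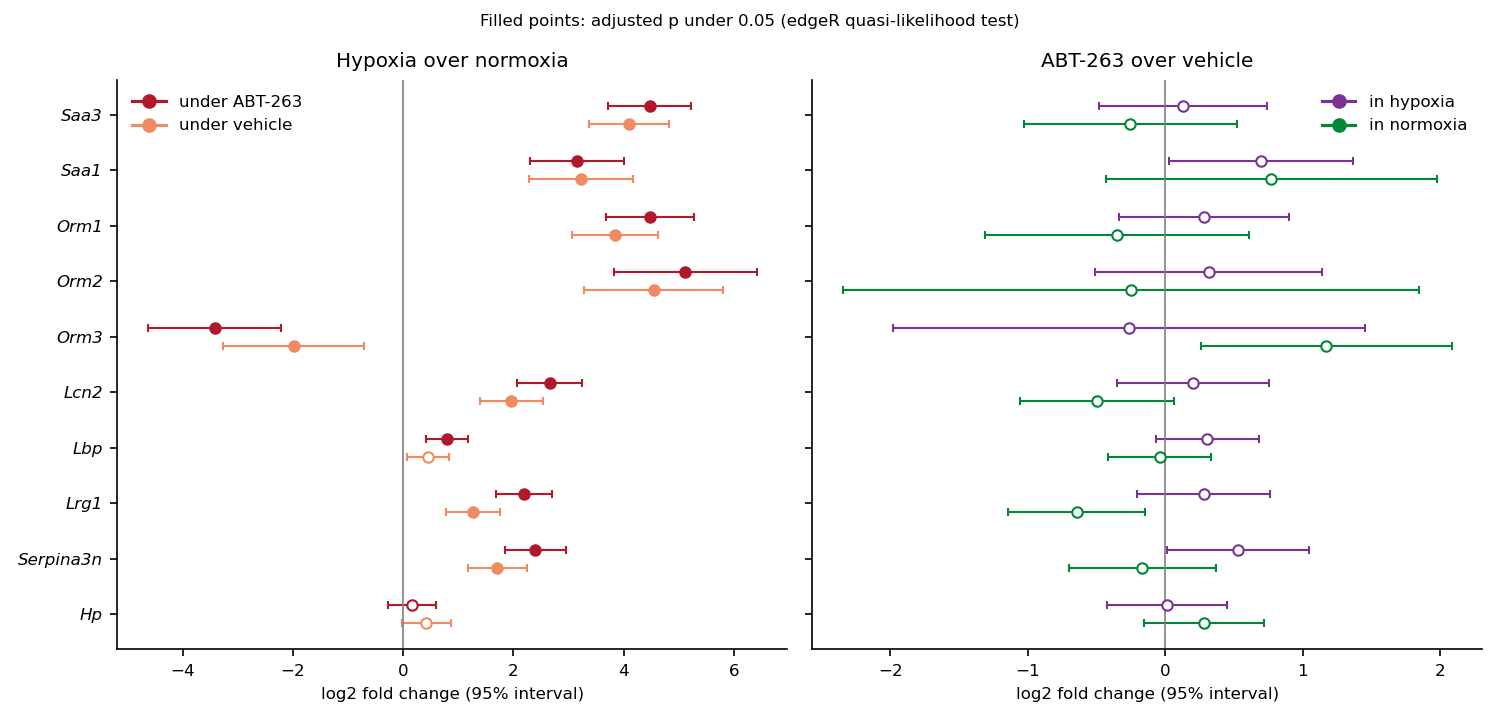
log2 fold changes with 95% intervals (x axes) of the 10 genes (rows) for hypoxia over normoxia (left, under ABT-263 and under vehicle) and for ABT-263 over vehicle (right, in hypoxia and in normoxia). Filled points have an edgeR adjusted p under 0.05; on the left 9 and 8 genes are filled under ABT-263 and vehicle, and on the right none is, with Orm3 in normoxia (1.17) farthest from 0.

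ABT-263 changed none of the 10 genes past the threshold at either oxygen level. In hypoxia, edgeR, DESeq2 and limma-voom each called 0 of 10, where edgeR called 0% of all genes, and 2 of 10 had an unadjusted p under 0.05 (3.21% of all genes). In normoxia they each called 0 of 10 as well, where edgeR called 0.0413% of all genes, and 2 of 10 had an unadjusted p under 0.05 (6.81% of all genes). Averaged over both oxygen levels, 0 of 10 were called by the 3 tools, against 0.165% of all genes by edgeR, and 1 had an unadjusted p under 0.05 (5.78% of all genes). The change of the hypoxia effect with the drug, tested as an interaction, called 0 of 10 in all 3 tools (smallest edgeR adjusted p = 0.991), where edgeR called 0% of all genes. Lrg1 alone had an unadjusted p under 0.05 for it (3.69% of all genes). The larger fold changes of Lcn2, Lrg1, Serpina3n, Lbp and Orm3 under ABT-263 are not shown to differ from those under vehicle.

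The values nearest to a drug difference were mixed in direction. In hypoxia, Saa1 averaged 2.19 ± 0.866 CPM with ABT-263 and 1.34 ± 0.399 CPM with vehicle (SD, n = 6 each; log2 fold change 0.70, 95% interval 0.025 to 1.37), which edgeR did not call after adjustment. Serpina3n there averaged 180.4 ± 104.7 CPM with ABT-263 and 125.2 ± 20.1 CPM with vehicle (0.53, interval 0.01 to 1.05), also not called, and 0.17 without hypoxia ABT-263 library 1. In normoxia, Lrg1 averaged 31.3 ± 9.33 CPM with ABT-263 and 48.8 ± 14.4 CPM with vehicle (log2 fold change -0.64, interval -1.14 to -0.15, edgeR adjusted p = 0.577), with overlapping libraries. Orm3 averaged 1.08 ± 0.507 CPM with ABT-263 and 0.473 ± 0.183 CPM with vehicle in normoxia (1.17, interval 0.26 to 2.09, adjusted p = 0.577). Its 6 drug libraries all lay above its 6 vehicle libraries, as happened upward for 0.213% of all genes, yet on counts of only 12 to 25 against 3 to 11 per library.

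For the strongly raised genes the drug intervals remained wide enough to hold moderate changes. Saa3 averaged 100.2 ± 36.9 CPM with ABT-263 and 91.7 ± 42.7 CPM with vehicle in hypoxia (log2 fold change 0.13, 95% interval -0.48 to 0.74). The summed orosomucoids averaged 24.8 ± 11.5 and 20.4 ± 10.9 CPM there (0.29, interval -0.30 to 0.87). Lcn2 averaged 292.6 ± 105.3 CPM with ABT-263 and 254.2 ± 109.2 CPM with vehicle in hypoxia (0.20, interval -0.35 to 0.75). In normoxia Lcn2 averaged 46.3 ± 15.1 CPM with ABT-263 and 65.2 ± 17.8 CPM with vehicle (-0.50, interval -1.06 to 0.07).

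The order of the genes was compared per length, as CPM per kilobase of the first annotated protein-coding transcript. Hp stood first in all 4 groups, at 2688.7 ± 863.3 and 2658.1 ± 920.0 in hypoxia with ABT-263 and vehicle, against 2416.5 ± 568.7 and 1982.8 ± 209.7 in normoxia with ABT-263 and vehicle (SD, n = 6 each). Lcn2 stood second in all 4, at 319.8 and 277.9 in hypoxia with ABT-263 and vehicle against 50.6 and 71.3 in normoxia. Saa3 held rank 3 in both hypoxia groups, against rank 6 in both normoxia groups. It reached 180.5 ± 66.6 with ABT-263 and 165.2 ± 76.9 with vehicle against 8.14 ± 3.07 and 9.66 ± 3.98 in normoxia. In hypoxia with ABT-263, Lrg1 (101.2 ± 36.7) and Serpina3n (87.4 ± 50.7) were neighbours in rank and overlapped. In normoxia with ABT-263, Lbp (26.9 ± 3.79) and Lrg1 (22.2 ± 6.62) overlapped in the same way. Orm3 stood last in both hypoxia groups (0.124 ± 0.146 and 0.154 ± 0.219 with ABT-263 and vehicle), whereas Orm2 stood last in both normoxia groups (0.0936 ± 0.107 and 0.123 ± 0.0845).

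Hp outweighed the rest in the summed level of the 10 genes. Without Hp, the summed level was 861.0 ± 281.4 CPM in hypoxia and 186.7 ± 38.5 CPM in normoxia under ABT-263, and 705.8 ± 202.0 CPM in hypoxia and 229.5 ± 43.8 CPM in normoxia under vehicle (SD, n = 6 each). With Hp, it was 4477.3 ± 1300.9 CPM in hypoxia and 3436.9 ± 778.3 CPM in normoxia under ABT-263, and 4281.0 ± 1430.9 and 2896.3 ± 286.9 CPM under vehicle.

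Libraries of a group differed together in several of these genes. Hypoxia vehicle library 2 was above its group mean for all 10 genes, with a median deviation of 0.84 on the log2 scale, and held the highest Saa3, Saa1, Lcn2, Orm1, Orm2, Orm3, Hp and Lrg1 of its group. Hypoxia ABT-263 library 5 was above its group mean for 0 of 10 genes (median -0.47). Hypoxia ABT-263 library 1 was highest in its group for Lcn2, Lbp, Lrg1 and Serpina3n but lowest for Saa3. After group means were subtracted, log2 CPM over the 24 libraries correlated at 0.94 between Lcn2 and Lrg1, 0.75 between Lcn2 and Serpina3n, 0.75 between Lrg1 and Serpina3n, 0.72 between Saa3 and Saa1 and 0.69 between Orm1 and Orm2. Saa3 and Serpina3n gave 0.04, and Orm1 and Orm3 gave -0.03. These are descriptions over libraries, and the genes share each library's depth and composition.

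**Figure D4:**
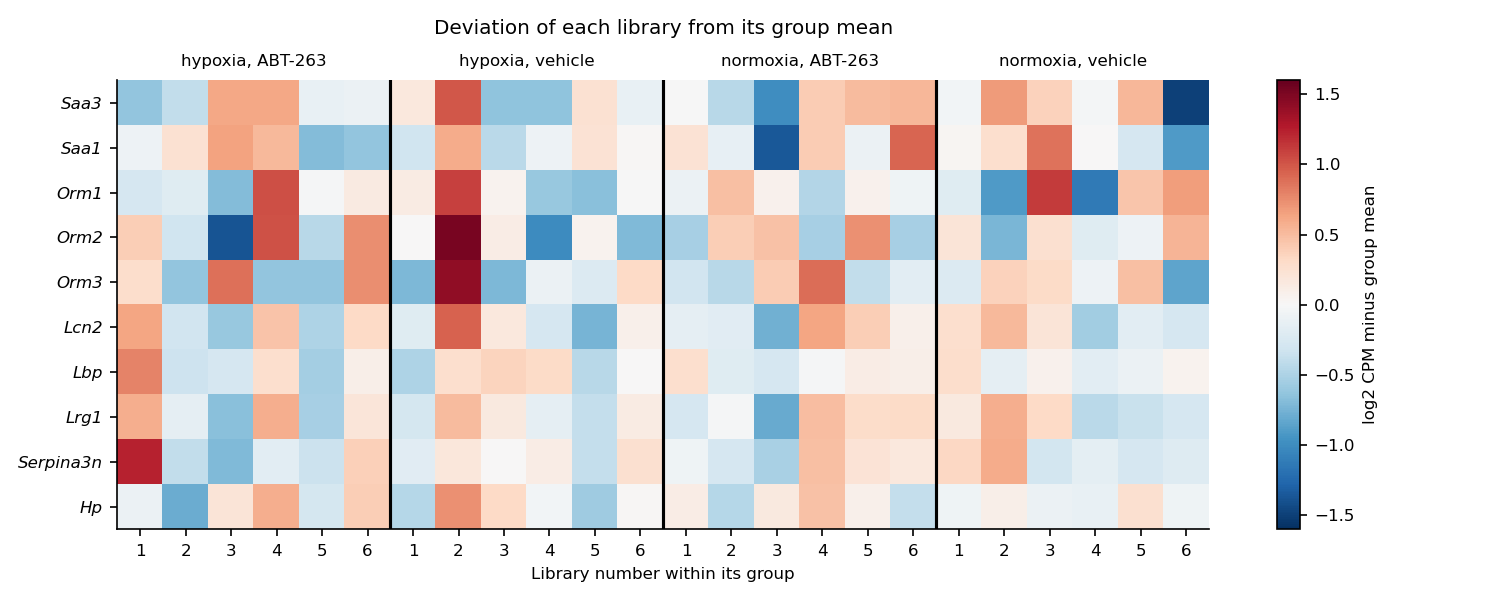
Deviation of each library (columns, numbered within the 4 groups) from its group mean for each of the 10 genes (rows), in log2 CPM; red is above and blue below the group mean. Library 2 of hypoxia with vehicle is above the mean in all 10 rows, and library 5 of hypoxia with ABT-263 in none.

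The genes most like each member were first taken over all 24 libraries, where correlations include the difference between hypoxia and normoxia. For Saa3 they were Timp1 (r = 0.97), the metalloproteinase inhibitor, and the resistin-like molecules Retnlb (0.96) and Retnla (0.96). For Saa1 they were Timp1 (0.93), the chemokine Ccl2 (0.93) and Serpina3m (0.92). Orm1 was most like Retnlb (0.98), AU040972 (0.96) and the tight junction gene Cldn2 (0.95), and Orm2 like Cldn2 (0.95), transferrin Trf (0.95) and Retnlb (0.95). Lcn2 was most like Cldn2 (0.97), Tubb6 and Slc39a1, Lrg1 like Slc39a1 (0.96), Ptges and Cldn2, and Serpina3n like the thrombin receptor F2r (0.97), Calu and Slc39a1. Orm3 was most like the peroxisomal thiolase Acaa1a (0.89), Tekt2 and Fam161b, Hp like Gstk1 (0.94), Ptgr1 and Ffar4, and Lbp like the prostacyclin synthase Ptgis (0.92), Gja1 and Sec61a1.

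With group means subtracted, most of the nearest genes were others, but Ptgr1 for Hp, Gja1 for Lbp and AU040972 for Orm1 appeared both ways. Hp then correlated with Aldh1a7 (r = 0.95), Cckar and Ptgr1, Lbp with Rhou (0.91), the connexin Gja1 (0.91) and the complement protease C1s1 (0.90), and Serpina3n with H6pd (0.95), Agpat3 and the transglutaminase Tgm2. Lcn2 correlated with Tgoln1 (0.91), Glrx and Cog7, Lrg1 with Eps8 (0.82), Tgoln1 and Abcc4, and Orm1 with Tmc5 (0.86), AU040972 and St8sia6. For 3 other members the values were weaker: Saa3 with Padi4 (0.70), P2rx2 and Med9os, Orm2 with Fut4 (0.77), Naa25 and Aqp4, and Orm3 with Mettl1 (0.76), Shmt1 and Capn10. These were the highest of 13907 genes compared and carry no test.

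Cytokines that drive the acute phase response were measured in the same libraries. Il6 ran from 2.32 to 5.45 CPM with a median of 3.02 in hypoxia with ABT-263, against 0.159 to 1.85 CPM with a median of 0.198 in normoxia with ABT-263. Under vehicle it ran from 2.40 to 5.99 CPM, median 4.40, in hypoxia and from 0.112 to 0.903 CPM, median 0.303, in normoxia. No hypoxia library overlapped the normoxia libraries. Of 7 cytokines tested from a list of 10, 3 rose in both comparisons and 0 fell. Over all genes, 21.6% and 18.9% were higher under ABT-263 and vehicle. The 3 were Il6 (log2 fold change 2.77 and 3.38 under ABT-263 and vehicle, edgeR adjusted p = 4.31e-05 and 4.39e-06), Lif (0.98 and 0.99) and Il11 (1.13 and 1.17), all of the IL-6 family.

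Their receptors and signal carriers moved in both directions. Of 19 genes, 4 rose and 6 fell under ABT-263, where 21.6% of all genes were higher and 19.4% lower. Under vehicle 4 rose and 7 fell, where 18.9% of all genes were higher and 16.8% lower. The share of rises is thus close to that of all genes in both, while the share of falls is above it in both. The median log2 fold change of the 19 was 0.056 under ABT-263 and -0.185 under vehicle. Socs3, the feedback inhibitor that STAT3 induces, averaged 77.8 ± 23.9 CPM in hypoxia and 31.8 ± 4.90 CPM in normoxia under ABT-263, and 75.4 ± 23.0 and 33.3 ± 3.60 CPM under vehicle (SD, n = 6 each; log2 fold change 1.29 and 1.18, edgeR adjusted p = 4.50e-06 and 1.27e-05). The oncostatin M receptor Osmr rose (0.53 and 0.42 under ABT-263 and vehicle) and the IL-1 receptor accessory protein Il1rap rose (0.44 and 0.55). The IL-6 receptor chain Il6ra fell (-0.73 and -0.44), as did the LIF receptor Lifr (-0.31 and -0.62) and the NF-kB subunit Rela (-0.41 and -0.31). Cebpa fell under vehicle (-0.62, adjusted p = 0.00373) and stood at -0.29 under ABT-263.

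Among 14 tested receptors and partners of these proteins, 5 rose and 3 fell under ABT-263, and 4 rose and 1 fell under vehicle. Over all genes, 21.6% were higher and 19.4% lower under ABT-263, and 18.9% and 16.8% under vehicle. Eng, the endothelial co-receptor through which Lrg1 acts, averaged 145.8 ± 33.5 CPM in hypoxia and 241.1 ± 19.2 CPM in normoxia under ABT-263, and 145.5 ± 13.5 and 290.2 ± 53.3 CPM under vehicle (SD, n = 6 each). It thus fell (log2 fold change -0.73 and -0.995, edgeR adjusted p = 7.17e-05 and 1.39e-06), opposite to Lrg1. Tgfbr2, the TGF-beta receptor subunit, rose by 0.99 and 0.58, Tlr4, to which Lbp delivers lipopolysaccharide, by 0.80 and 0.63, and the intermediate filament Vim by 0.82 and 0.63 under ABT-263 and vehicle. Slc22a17, proposed as a receptor of lipocalin-2, fell under ABT-263 (-0.69, adjusted p = 0.0171) and stood at -0.56 under vehicle (adjusted p = 0.0525). Of 9 genes of the glucocorticoid response, 2 rose and 1 fell under ABT-263, and 1 rose under vehicle, shares no higher than the 41.0% and 35.7% of all genes called. Fkbp5 rose by 1.15 under vehicle (adjusted p = 0.00302) and by 0.84 under ABT-263 (adjusted p = 0.0205). The ABT-263 calls of Fkbp5, Nr3c1 (0.24, adjusted p = 0.0490) and Dusp1 (-0.77, adjusted p = 0.0498) were all lost without the 4 libraries that stood apart. The Fkbp5 call under ABT-263 was also lost without hypoxia ABT-263 library 1 (adjusted p = 0.103).

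Other acute phase genes rose in part. Of 22 tested from a list of 29, 11 rose and 1 fell under ABT-263, where 21.6% of all genes were higher and 19.4% lower. Under vehicle 9 rose and 0 fell, where 18.9% were higher and 16.8% lower. The medians were 0.51 and 0.36 under ABT-263 and vehicle on the log2 scale. The protease inhibitor Serpina3m rose by 2.23 and 2.03 under ABT-263 and vehicle (edgeR adjusted p = 1.15e-08 and 5.49e-08), and its relative Serpina3i by 1.30 and 1.73. Both are relatives of Serpina3n, and how far reads were divided among these genes was not measured. Their rises are thus not shown to be separate from that of Serpina3n. The pentraxin Ptx3 rose by 2.65 and 2.02 (adjusted p = 4.20e-07 and 8.81e-06), the metallothionein Mt2 by 1.61 and 1.37, and the copper carrier ceruloplasmin Cp by 1.005 and 1.06. The haem binder Hpx, chosen after its values were seen, also rose (0.93 and 1.23). The 1 gene that fell under ABT-263 was Hamp, which encodes the iron hormone hepcidin (-1.34, adjusted p = 0.0253), and no member of the list was lower without hypoxia ABT-263 library 6.

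Of the genes known to fall in the liver's acute phase, none was called lower. Of 4 tested from a list of 6, 2 rose under ABT-263 and 1 under vehicle (21.6% and 18.9% of all genes), and 0 fell. Trf, the iron carrier transferrin, averaged 2768.8 ± 892.0 CPM in hypoxia and 621.1 ± 89.8 CPM in normoxia under ABT-263, and 2799.5 ± 1298.7 and 576.7 ± 46.7 CPM under vehicle (SD, n = 6 each). Its log2 fold change was 2.16 and 2.28 (edgeR adjusted p = 1.44e-07 and 6.24e-08). Ahsg rose under ABT-263 (1.14, adjusted p = 0.0130), a call lost without hypoxia ABT-263 library 1 (adjusted p = 0.0594).

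**Figure D5:**
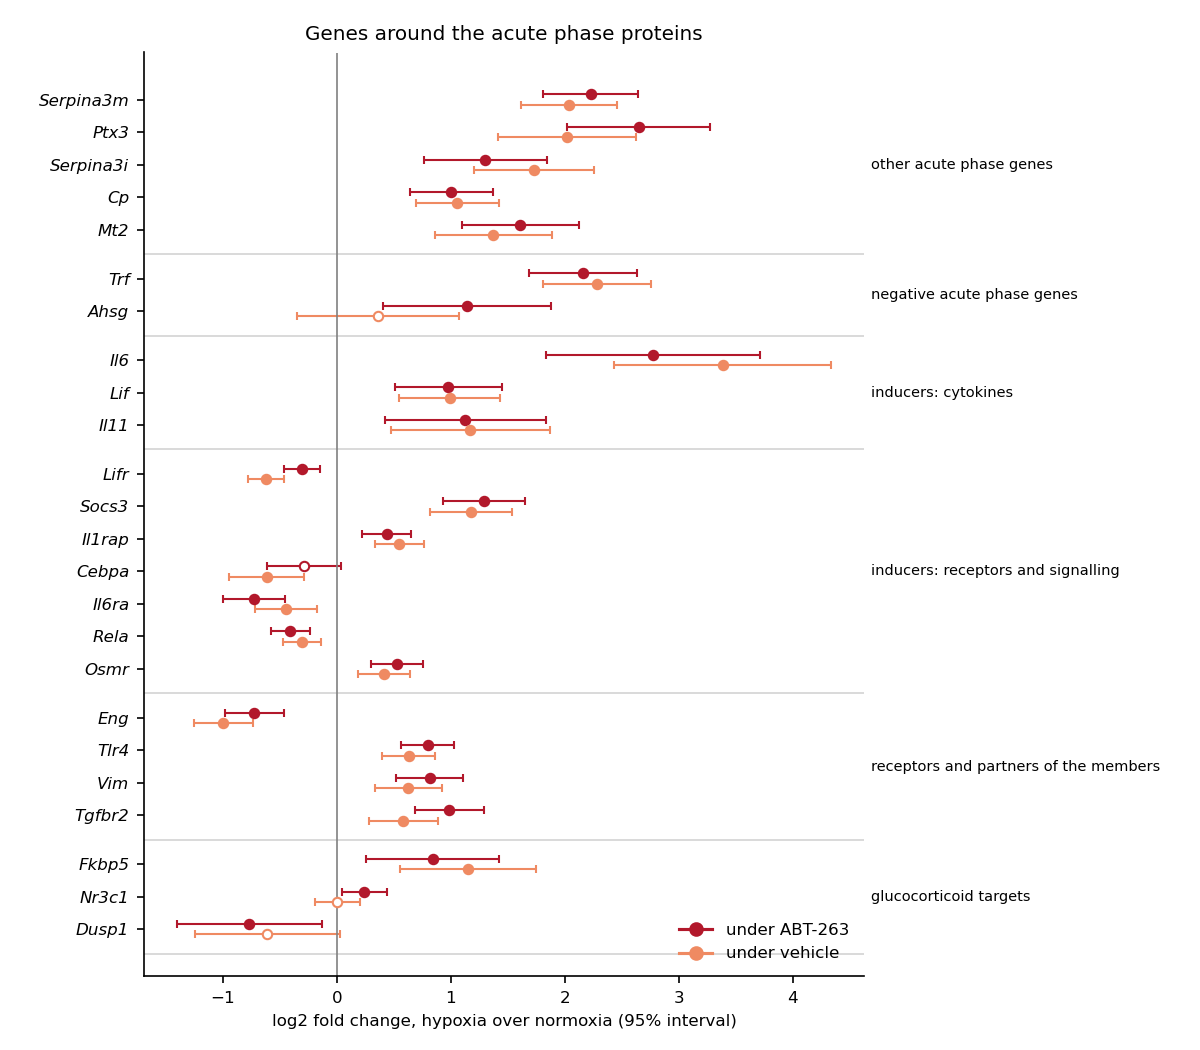
log2 fold changes of hypoxia over normoxia with 95% intervals (x axis) for genes called in at least 1 of the 2 comparisons (rows, at most 4 per list and comparison), grouped by list, under ABT-263 and under vehicle; filled points have an edgeR adjusted p under 0.05. Il6, Socs3, Trf and Serpina3m lie right of 0 in both, and Eng, Il6ra, Lifr and Rela left of 0 in both.

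Several cell types could supply these transcripts, and their markers were summed per library. Neutrophil markers (10 genes, 8 tested) summed to 180.4 to 337.5 CPM in hypoxia and 159.0 to 319.1 CPM in normoxia under ABT-263, and to 110.7 to 199.0 and 120.9 to 199.6 CPM under vehicle. Of the 8, 2 rose and 1 fell under ABT-263, where 21.6% of all genes were higher and 19.4% lower. Under vehicle 2 rose and 2 fell, where 18.9% were higher and 16.8% lower. Retnlg (1.39 and 0.99 under ABT-263 and vehicle) and Il1r2 (0.96 and 1.37) rose, and Csf3r, the receptor of the neutrophil growth factor G-CSF, fell (-0.775 and -0.77). The matrix protease Mmp9 fell under vehicle (-1.225, adjusted p = 0.000149). Genes of neutrophil granules (6 genes, 4 tested) summed to 127.3 to 403.1 CPM in hypoxia and 24.2 to 57.3 CPM in normoxia under ABT-263, and to 114.8 to 295.3 and 16.5 to 66.4 CPM under vehicle. Of the 4 tested, 2 rose under ABT-263 and 1 under vehicle, and 0 fell. Ngp rose under ABT-263 (1.77, edgeR adjusted p = 0.0454), a call lost without the 4 libraries that stood apart (adjusted p = 0.0751). Nearly all of the summed level was lactoferrin, Ltf, which glands of the airway also make (227.8 and 188.9 CPM in hypoxia against 37.1 and 33.4 CPM in normoxia, under ABT-263 and vehicle). Mpo and Elane averaged under 0.1 CPM in every group. Ltf rose with Lcn2, which neutrophil granules also hold, and its part in the result was not tested.

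Alveolar macrophage markers (8 genes, all tested) summed to 611.6 to 856.4 CPM in hypoxia and 360.7 to 525.4 CPM in normoxia under ABT-263, and to 532.1 to 953.2 and 385.8 to 506.6 CPM under vehicle. Only Chil3 rose among them (log2 fold change 1.43 and 1.599 under ABT-263 and vehicle), and Car4 fell (-0.48 and -0.45). Over all genes, 21.6% were higher and 19.4% lower under ABT-263, and 18.9% and 16.8% under vehicle. The median log2 fold change of the 8 was 0.104 under ABT-263 and 0.066 under vehicle. Fibroblast and adventitial markers (7 genes) summed to 1538.5 to 2442.7 CPM in hypoxia and 953.7 to 1699.1 CPM in normoxia under ABT-263, and to 1574.5 to 2108.4 and 1065.4 to 1488.5 CPM under vehicle. Of the 7, 4 rose under ABT-263, where 21.6% of all genes were higher. Under vehicle 3 rose and 1 fell, where 18.9% were higher and 16.8% lower. The marker sums of hypoxia and normoxia did not overlap for alveolar macrophages, and under vehicle for fibroblasts. For alveolar macrophages the sum does not stand for the list as a whole, since only 1 of its 8 markers was called higher. The part of these cells in the result was not tested.

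Markers of club and other secretory cells of the airway (6 genes, all tested) went both ways, with 2 rises and 2 falls under ABT-263 and 2 rises and 1 fall under vehicle. Over all genes, 21.6% were higher and 19.4% lower under ABT-263, and 18.9% and 16.8% under vehicle. The 6 markers summed to 74518.2 and 75841.2 CPM in hypoxia with ABT-263 and vehicle, against 108103.1 and 100463.1 CPM in normoxia. The detoxifying enzyme Cyp2f2 of club cells fell by 1.39 and 1.36 on the log2 scale under ABT-263 and vehicle, while the mucin Muc5b rose by 1.135 and 1.19 and the antibacterial lectin Reg3g by 3.18 and 2.00. The abundant club cell protein gene Scgb1a1 fell under ABT-263 (-0.53, edgeR adjusted p = 0.0271), but not when hypoxia ABT-263 library 5 was left out (adjusted p = 0.0683), nor without several other single libraries. Reg3g averaged 882.0 ± 273.7 CPM in hypoxia and 97.3 ± 98.5 CPM in normoxia under ABT-263, and 496.2 ± 231.8 and 124.3 ± 141.5 CPM under vehicle (SD, n = 6 each). Its vehicle call (edgeR adjusted p = 0.0335) was lost without hypoxia vehicle library 3 (adjusted p = 0.0651) and without several other single libraries. Of 7 monocyte and interstitial macrophage markers tested, 4 rose and 1 fell under ABT-263, and 2 rose and 0 fell under vehicle. Mrc1 (0.74 and 0.74) and F13a1 (0.63 and 0.55) rose in both, while C1qb (0.84) and C1qa (0.48) rose under ABT-263. The calls of C1qa, and of F13a1 under vehicle, were lost without some single libraries. Of 7 endothelial markers tested, beside the same shares of all genes, 2 rose and 1 fell under ABT-263 and 0 rose and 2 fell under vehicle. Tie1 fell in both (-0.41 and -0.60), and Selp (0.995, adjusted p = 0.00173) and Vwf (0.545, adjusted p = 0.00251) rose under ABT-263. Summed alveolar type 2 markers ran from 28155.7 to 38267.6 CPM in hypoxia and 24677.7 to 33614.2 CPM in normoxia under ABT-263, and from 22284.8 to 39418.2 and 26250.2 to 35095.5 CPM under vehicle, and so overlapped. The part of these cells in the result was not tested.

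Adipocyte markers (8 genes, 7 tested), which stand for fat taken with the lung, summed to 48.5 to 177.3 CPM in hypoxia and 61.1 to 262.2 CPM in normoxia under ABT-263, and to 54.3 to 90.3 and 61.4 to 303.4 CPM under vehicle. None of them was called under ABT-263, and 6 fell under vehicle (1 in limma-voom), where edgeR called 16.8% of all genes lower. Hepatocyte markers (10 genes, 3 tested) summed to 4.61 to 14.2 CPM in hypoxia and 6.59 to 18.5 CPM in normoxia under ABT-263, and to 3.14 to 8.78 and 6.83 to 24.9 CPM under vehicle. Cyp2e1, which fat and airway cells also make, gave 4.59 and 2.24 CPM of it in hypoxia with ABT-263 and vehicle, against 8.31 and 13.2 CPM in normoxia. The hepatocyte marker Ahsg was called higher under ABT-263, as given above. The part of fat and liver cells in the result was not tested.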

How the data were processed

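The authors deposited 1 table of expected counts per gene for 24 libraries, whole numbers in 91.8% of its cells. The tools named per the submitters' processing notes are Trimmomatic (trimming), STAR (alignment) and RSEM (estimation), and the build named is GRCm38. The sources used here do not give versions, annotation, strand setting or read length. Per the labels' protocols, libraries were stranded mRNA libraries sequenced on a NextSeq. All columns matched a library, and 0 were left unmapped. Within each group, every pair of libraries differed by more than sampling noise (lowest chi-square per degree of freedom 7.07).

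Expected counts were rounded and tested in edgeR 4.0.16 (R 4.3.3), with filterByExpr (minimum count 10, 16935 genes kept), TMM scaling, 1 mean per group, 20 residual degrees of freedom and a robust quasi-likelihood fit, checked on simulated data. The simulation changed a small set of genes without low counts. It therefore covers neither the low-count members nor a change in as many genes as was called here. P-values were adjusted by Benjamini-Hochberg over all genes tested. Sums of Orm1, Orm2 and Orm3, and of Saa1 and Saa2, were tested in a table that held them in place of the single genes. DESeq2 1.42.0, limma-voom (limma 3.58.1), RLE and total-count scaling, no filter, no robust estimation, 2-group fits and leaving out each library were alternatives.

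Members, lists and tests were chosen with earlier results of these data known. The members were named in every comparison. From each list, genes called were named, as a rule at most the 4 with the smallest p. For the cell type markers only some of these genes are named. The 3 genes most correlated with each member, with a mean of at least 1 CPM, were named too. For Saa1 the genes most correlated after subtracting group means are not reported here. Correlations use log2 CPM with a prior count of 2. Transcript lengths and likeness come from GENCODE M21 and promoters from RefSeq. Intervals are 95%. At these depths a gene at 0.1 CPM rests on 1 or 2 counts per library, so counting error weighs most for Saa1 and the Orm genes.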

Additional observations from a re-analysis of the deposited data

Results flagged for a closer look

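A library was singled out when its gap to the nearest other library of its group of 6 was, as a share of the group's whole range, above Dixon's 95% critical value. Chance alone does this in about 1 in 20 groups. Over 48 groups of values 5 met it, and 4 of the 5 come from hypoxia vehicle library 2, so they are not independent. That library was the highest of its group for Orm1 at 35.1 CPM, with a gap of 0.688 of the range. It was also the highest for Orm2 at 5.98 CPM, where the next library had 2.20 CPM, and for Orm3 at 0.448 CPM, where the next had 0.139 CPM. The sum of the 3 orosomucoids was 41.5 CPM in it, a gap of 0.722 of the range. Without it, the log2 fold change of hypoxia over normoxia under vehicle was 3.54 for Orm1, 4.06 for Orm2, -2.98 for Orm3 and 3.16 for the sum. In hypoxia with ABT-263, library 4 was the highest for Orm1 at 41.4 CPM, where the next had 22.3 CPM. Without it the log2 fold change of Orm1 under ABT-263 was 4.20.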

How the results depend on the processing

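No paired analysis was possible because the labels carry no replicate or animal numbers. Under the alternatives that keep all 10 genes, 9 were called in hypoxia against normoxia under ABT-263, and 8 to 9 under vehicle. With related genes summed, 7 of 8 values were called under ABT-263 and 6 of 8 under vehicle. In the 2-group fit Orm3 did not pass the filter under vehicle. No alternative called a member for the drug or the interaction. Of the values for single genes and sums, 390 of 390 kept direction and call under ABT-263 and 380 of 389 under vehicle. The exceptions were Orm3 (-1.72, adjusted p = 0.0635, without the 4 libraries that stood apart, an alternative chosen after seeing the data) and Lbp. Lbp passed in DESeq2 (0.46), in the 2-group fit (0.46), without those 4 libraries (0.52) and without each of 5 single libraries. Leaving out 1 library, Orm3 under vehicle ran from -2.98 to -1.73 and Lbp from 0.38 to 0.54.

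Values that changed sign were all for the drug or the interaction and uncalled, and the cause was not tested. Without 1 library, Saa3 ran from -0.012 to 0.393 in hypoxia and from -0.157 to 0.069 averaged over both oxygen levels, Orm1 averaged from -0.175 to 0.122, and Orm2 from -0.709 to 0.044 in normoxia and from -0.196 to 0.279 averaged. In hypoxia Orm3 ran from -0.686 to 0.731 and Hp from -0.11 to 0.194, and in normoxia Lbp ran from -0.096 to 0.021. The interaction ran from -0.495 to 0.266 for Saa1, from -0.214 to 0.395 for the Orm sum and from -0.359 to 0.238 for the Saa1 and Saa2 sum. In limma-voom the averaged values were 0.111 for Orm1 and -0.015 for Orm2, and the Orm sum's interaction was -0.015. With total-count scaling, Orm2 averaged was -0.004 and Hp in hypoxia was -0.008. Without the 4 libraries, the averaged values were 0.029 for Saa3, -0.364 for Orm2 and -0.026 for Lbp, and those in hypoxia were -0.062 for Lcn2 and -0.053 for Hp.

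Total-count scaling moved the median of all genes to -0.108 in hypoxia against normoxia under vehicle, against -0.040 with TMM. Of 83 calls picked from the lists by smallest p, not all of them named here, 17 were lost under some alternative. Depth limits Saa1, Orm1, Orm2 and Orm3, which had under 10 counts in at least 1 library of some group.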

Other observations

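The chains of fibrinogen, a hexamer built in the liver from equal parts of 3 gene products, were unequal in these lungs. Fgg averaged 1.65 ± 0.664 CPM in hypoxia and 0.315 ± 0.218 CPM in normoxia under ABT-263, and 1.76 ± 1.36 and 0.483 ± 0.257 CPM under vehicle (SD, n = 6 each). Fga had 35 counts in hypoxia and 2 in normoxia under ABT-263, a ratio of 17.3 (95% counting interval 4.45 to 148.6). Normoxia with vehicle held 7 counts of Fga, so the size of this ratio leans on a low reference. Fgb was at 0 in all 24 libraries.

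Saa4, a serum amyloid A that is made steadily in the mouse liver, had 17 counts in hypoxia and 2 in normoxia under ABT-263 (ratio 8.41, 95% counting interval 2.00 to 75.1). Under vehicle it had 10 and 1 counts (ratio 10.2, interval 1.45 to 443.3). Crp, which is not a major acute phase protein in mice, had 2 counts in hypoxia and 4 in normoxia under ABT-263 (ratio 0.495, interval 0.0448 to 3.45). These ratios are against 1 to 4 counts over 6 libraries and cover counting error only.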
